A study of Mus musculus with 8 samples.

Results

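The comparison described here is the one between untreated quiescent neural stem cells (qNSCs) collected 24 h and 4 h after they were placed in fresh quiescence medium. It rested on 4 of the 8 arrays of the series, 2 at each time, chosen by their labels as controls, and on the 20867 of 23473 gene probes that had a value on all 4. The question was what the cells did over that day on their own, since the same times served as the controls for an inhibitor.

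The cells were a neural stem cell line that had been derived from embryos of ICR mice, from the ventral part of the telencephalon. Before the experiment all of them had spent 3 days in a quiescence medium that contained BMP4, a signal that holds neural stem cells out of the cell cycle, and bFGF, and that lacked EGF. At 4 h and 24 h the control cells had been kept in the same medium without drug. The remaining 4 arrays came from cells given 20 nM bafilomycin A (BafA), an inhibitor of the vacuolar proton pump (V-ATPase) that acidifies lysosomes, for the same times. Every group was a single cell line kept in culture, so nothing here bears on the differences between animals. The methods call the samples duplicates, and nothing in the sources used here says that a pair came from separate cultures, so the p-values measure only the spread between these arrays, which may be technical. No array was taken at the change of medium. A gene that was briefly high at 4 h and a gene that declined late can therefore not be told apart, and the same holds for rises. In bulk RNA, fewer cells of a type and less RNA per cell cannot be told apart either.

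Neural stem cells in the adult and embryonic brain divide when growth factors such as EGF and FGF activate the ERK cascade, and enter a reversible quiescence under BMP signalling. Quiescent cells differ from dividing ones in more than their cell cycle genes. They rely on fatty acid metabolism and on active lysosomes, make fewer ribosomes, and express many genes that they share with astrocytes. A change of medium resupplies nutrients and growth factors and removes secreted products, and in many cultured cells it also shifts the circadian clock.

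RNA was amplified, labelled with Cy5 and hybridised to 1-colour oligonucleotide arrays. The deposited values are spot intensities above the level of the blank spots, scaled so that the median probe of each array has the value 25. Each array had a value for 21652 to 22023 of the probes, and a probe without a value lay at or under the blank level. The precision is limited by the number of arrays. The median difference between a pair of arrays was 0.17 on the log2 scale at 4 h and 0.19 at 24 h. Among the 11047 probes with a mean value of 25 or more, 13 differed by more than 2-fold between the 4 h arrays and 66 between the 24 h arrays. The first control array of either time was scanned at 1 gain setting and the other 6 arrays at another, so each scan setting holds 1 control array of each time and is a comparison of its own. Every rise or fall given below with values ran the same way within both settings. All 7537 probes that passed the test below had both 24 h arrays on the same side of both 4 h arrays. For a called gene, agreement within the settings and groups that stand apart therefore follow from the call and add no support.

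The cells carried the markers that their label leads one to look for. The radial glial and stem cell gene Fabp7 read 11212 and 11826 at 4 h and 17626 and 16691 at 24 h, and the astrocyte and stem cell enzyme Aldoc read 13149 and 11658 at 4 h and 19772 and 18664 at 24 h. The microglial genes Cx3cr1, P2ry12 and C1qa and the endothelial genes Pecam1 and Cdh5 read between 0.9 and 3.3 on the 4 arrays, close to the blank level, and the endothelial gene Vwf read 6.4 and 5.8 at 4 h and 5.9 and 6.7 at 24 h. Cd68, a lysosomal protein that is abundant in microglia and macrophages, was well above the blank level and read 135 and 172 at 4 h and 126 and 190 at 24 h, with overlapping groups (adjusted p = 0.95). Of the 12 microglial marker genes tested, 0 were higher and 1 was lower at 24 h, or 0 without the second 4 h array, and the values of the list summed to between 274.6 and 360.8 on the 4 arrays. Endothelial, mural and fibroblast markers summed to 3149.7 and 2506.0 at 4 h and to 623.6 and 623.5 at 24 h. Most of that sum was smooth muscle actin (Acta2), described below among the actin genes. Of the 15 tested members 3 rose and 2 fell (20.0% and 13.3%, against 21.3% and 17.0% of all genes).

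Over the whole array a large part of the transcriptome differed between 4 h and 24 h. With limma on the log2 values and a Benjamini-Hochberg threshold of 0.05, 7537 of 20867 probes (36.1%) passed, 4255 higher at 24 h (20.4%) and 3282 lower (15.7%). One probe was then taken for each gene with a symbol. Of 14923 such genes 5728 passed (38.4%), 3186 of them (21.3%) with a rise and 2542 (17.0%) with a fall, and these shares are the background against which the counts of gene groups below are read. Most differences were small. The middle 90% of the genes lay between log2 changes of -1.01 and 1.01, with a median of 0.09. Changes of at least 2-fold that passed the test were found in 746 genes that rose (5.0%) and 748 that fell (5.01%), and changes of at least 8-fold in 23 (0.154%) and 19 (0.127%). An exact permutation of 2 arrays against 2 cannot give a two-sided p below 0.33, so all calls rest on the spread that the fit shares over genes and over the 4 groups of arrays. Folds of dim probes depend on how the background is treated. A fold given below for a gene with a mean under 25 at 1 of the times is thus poorly set in size. With a pseudocount of 10, or with scanner signals after normexp background correction and an offset of 50, both of which raise low readings at either time, the fold was over 1.5 times smaller for 43 of the 150 genes given below or in the closing section as changed, and 42 of these 43 had a mean under 25 at 1 of the times.

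The largest rise was that of Timp4, which encodes an inhibitor of matrix metalloproteinases. It read 9.5 and 9.6 at 4 h and 1067 and 1055 at 24 h, a 111-fold difference (log2 change 6.80, SE 0.12, adjusted p = 5.5e-11) that was 30.5-fold after normexp correction. All rises described in this paragraph had both 24 h arrays above both 4 h arrays. Aplnr, the receptor for the peptide apelin, went from 8.2 and 12.9 to 1026 and 515 (70.7-fold, or 20.7-fold after normexp correction, adjusted p = 2.3e-07), with the 24 h arrays about 2-fold apart. Serpinf1, which encodes the secreted factor PEDF, read 55.9 and 65.1 at 4 h and 1867 and 1997 at 24 h (32.0-fold, adjusted p = 2.4e-09). The taurine transporter Slc6a6 read 39.1 and 27.9 at 4 h and 714 and 605 at 24 h (19.9-fold, adjusted p = 1.5e-07). The groups were apart for each of these. The proteoglycan biglycan (Bgn) rose 12.9-fold from 15.6 and 15.6 to 197 and 206 (adjusted p = 1.5e-07), and the elastic fibre protein Fbln5 rose 8.55-fold (adjusted p = 2.3e-07). Nampt, the rate-limiting enzyme of NAD salvage, read 91.6 and 88.2 at 4 h and 969 and 823 at 24 h (9.93-fold, adjusted p = 3.2e-08), and G0s2, an inhibitor of triglyceride breakdown, rose 8.11-fold from 17.6 and 20.4. Derl3, a part of the machinery that clears misfolded proteins from the endoplasmic reticulum, read 11.1 and 11.8 at 4 h and 111 and 152 at 24 h (11.4-fold). Olig1, a transcription factor of the oligodendrocyte lineage, read 434 and 270 at 4 h and 3263 and 2750 at 24 h (8.75-fold, adjusted p = 6.3e-07).

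The largest falls ran over a narrower range of folds. Cnmd, which encodes the secreted protein chondromodulin, read 174 and 153 at 4 h and 6.2 and 7.7 at 24 h, 23.6-fold lower (log2 change -4.56, SE 0.15, adjusted p = 1.6e-08) and 5.68-fold lower after normexp correction. Fst, which encodes follistatin, a secreted protein that binds activins and some BMPs, read 1824 and 1274 at 4 h and 77.1 and 109 at 24 h (16.6-fold lower, adjusted p = 2.4e-07). Both groups of arrays stood well apart for each of these genes. The membrane protein Emp1 fell 10.5-fold from 1555 and 1100 to 111 and 140, and the transcriptional coregulator Cited1 fell 10.1-fold from 3536 and 3152 to 384 and 282. The caveolar protein Cav1 read 4102 and 2948 at 4 h and 602 and 602 at 24 h (5.78-fold lower, adjusted p = 1.8e-06), the integrin subunit Itgb5 fell 6.40-fold and transglutaminase 2 (Tgm2) 6.58-fold. Arrdc4 and Txnip, arrestin-family genes that restrain glucose uptake, fell 8.89-fold and 4.49-fold. Arrdc4 read 504 and 481 at 4 h and 46.3 and 66.3 at 24 h, and Txnip read 1209 and 1068 at 4 h and 362 and 177 at 24 h, with the 24 h arrays of Txnip about 2-fold apart and both below the 4 h arrays.

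**Figure D1:**
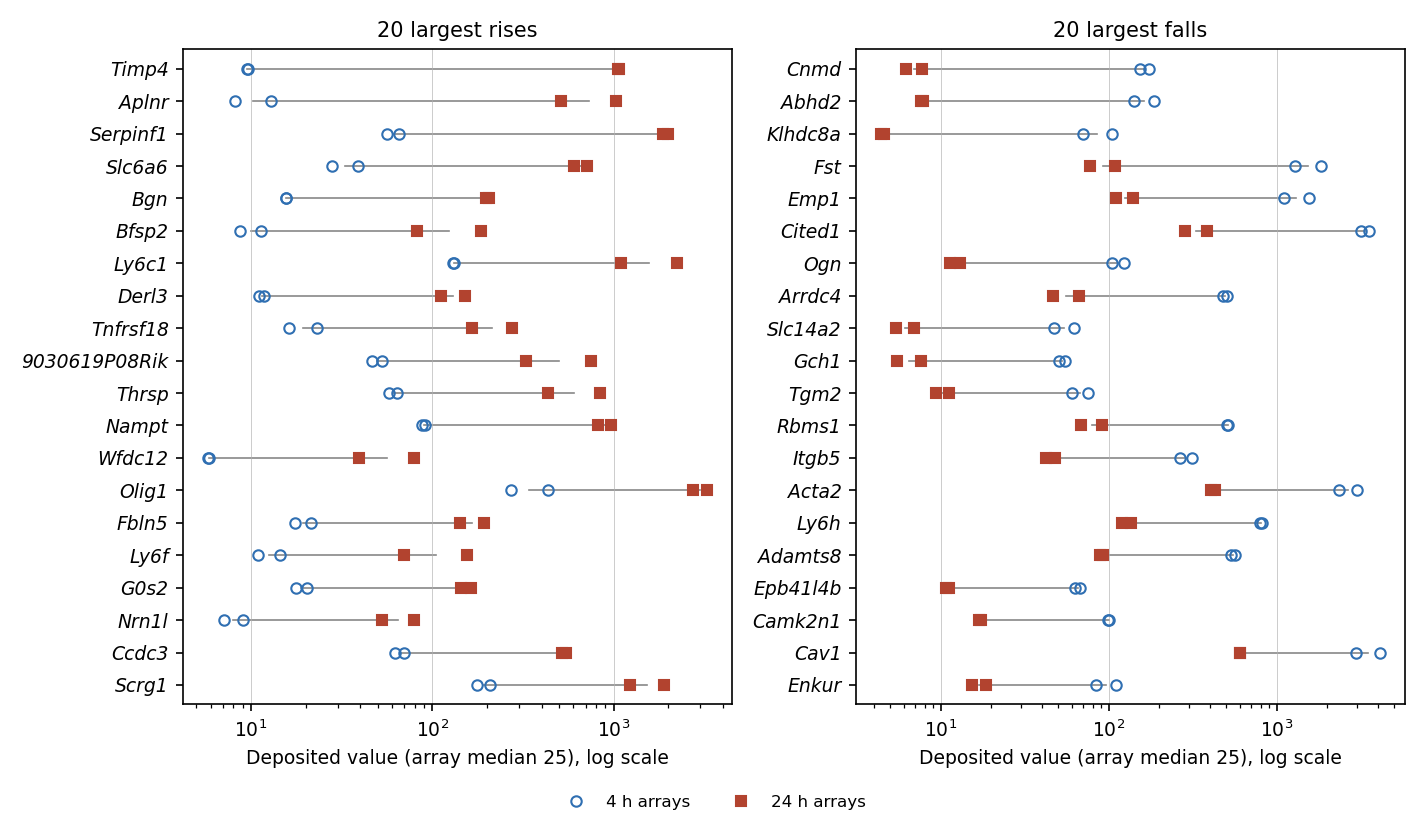
Deposited values of the 20 genes with the largest rise (left) and the 20 with the largest fall (right) among genes that passed the test and had a mean of 50 or more at their higher time. Each row is a gene, the horizontal axis is the array value on a log scale (array median 25), open circles are the 2 arrays at 4 h, filled squares the 2 arrays at 24 h, and a grey line joins the group means. In every row both 24 h arrays lie on the same side of both 4 h arrays, as the rule for picking the genes required.

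Of the EGF receptor ligands given here, Hbegf and Tgfa fell, in cells whose medium lacked EGF. Btc rose from low readings, by 1.14-fold after normexp correction. Hbegf read 908 and 676 at 4 h and 178 and 194 at 24 h and was 4.22-fold lower at 24 h (log2 change -2.08, SE 0.14, adjusted p = 1.5e-06). Tgfa read 11.8 and 12 at 4 h and 1.1 and 1.6 at 24 h and passed as lower (adjusted p = 4.4e-05). Its 24 h readings were close to the blank level, so the size of the fall is poorly set, at 8.97-fold in the deposited values and 1.40-fold after normexp correction. For both ligands the 4 h and the 24 h arrays did not overlap. Btc, another ligand with low readings, read 6.1 and 3.0 at 4 h and 8.6 and 10.4 at 24 h and rose 2.21-fold (adjusted p = 0.012), a call that was lost without the second 4 h array or without the second 24 h array. The ligands Ereg and Egf read 2.3 and 2.4 at 4 h and 2.4 and 1.5 at 24 h and 4.4 and 7.0 at 4 h and 4.7 and 4.7 at 24 h and did not pass (adjusted p = 0.36 and 0.48). Lrig1, an inhibitor of EGF receptor signalling, rose 1.94-fold from 616 and 693 to 1490 and 1079 (adjusted p = 0.0012). The receptor Egfr itself read 229 and 195 at 4 h and 137 and 191 at 24 h and did not pass (adjusted p = 0.075). Of the 15 tested EGF receptor ligands, receptors and partners, 3 rose (20.0%, against 21.3% of all genes) and 6 fell (40.0%, against 17.0%). Their median log2 change was -0.39, against 0.09 over all genes, and -0.07 after normexp correction.

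Genes that respond quickly to growth factors were split. Of 30 immediate-early and early growth response genes tested, 10 fell (33.3%, against 17.0% of all genes) and 4 rose (13.3%, against 21.3%). Their median log2 change was -0.15, and -0.05 after normexp correction and -0.34 without the second 24 h array. Fosl1, a Fos-family subunit of the AP-1 transcription factor, read 17.1 and 10 at 4 h and 1.4 and 1.7 at 24 h (8.48-fold lower in the deposited values and 1.45-fold after normexp correction, adjusted p = 1.5e-06). The small Maf factor Maff read 81.3 and 72.5 at 4 h and 12.9 and 17.1 at 24 h (5.17-fold lower, adjusted p = 7.5e-07). The classical members behaved less uniformly. Fos read 1138 and 765 at 4 h and 421 and 587 at 24 h (1.88-fold lower, adjusted p = 0.0031), whereas Egr1 read 17.8 and 10 at 4 h and 21.7 and 13 at 24 h and Myc read 28.9 and 24.5 at 4 h and 22.1 and 26.3 at 24 h, each with overlapping groups (adjusted p = 0.37 and 0.45). Jun read 368 and 307 at 4 h and 325 and 305 at 24 h (adjusted p = 0.58). Klf10, a zinc finger factor induced by TGF-beta, fell 3.21-fold from 1663 and 1547 to 389 and 642. The nuclear receptor Nr4a1 fell 2.03-fold from 114 and 115 to 63.3 and 50.1 (adjusted p = 3.2e-04). In the other direction, the MAP kinase phosphatase Dusp1 read 47.5 and 41.1 at 4 h and 113 and 118 at 24 h (2.61-fold higher, adjusted p = 8.2e-06).

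Of a list of genes that ERK induces, among them brakes on ERK itself, about as many passed as in the background. A few are given here. Dusp6, the phosphatase that inactivates ERK, read 12.1 and 9.2 at 4 h and 31.5 and 22.5 at 24 h (2.52-fold higher, adjusted p = 1.1e-04). The ETS factor Etv4 read 16.3 and 15.6 at 4 h and 38.9 and 34.4 at 24 h (2.29-fold higher, adjusted p = 2.5e-05). The inhibitor Spry2 rose 1.73-fold from 8.9 and 7.2 to 14.5 and 13.3 (adjusted p = 0.0022). After normexp correction the rises of Dusp6, Etv4 and Spry2 were 1.43-fold, 1.49-fold and 1.16-fold. The 24 h arrays were above the 4 h arrays for all 3. Spred1, a related inhibitor, went the other way and fell 3.18-fold from 63.7 and 54.6 to 16.5 and 20.8 (adjusted p = 1.2e-05). Over the 15 ERK feedback genes tested, 3 rose (20.0%, against 21.3% of all genes), 2 fell (13.3%, against 17.0%) and 10 did not pass, and the count that fell was 4 without the first 4 h array and 1 without the first 24 h array.

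Genes under serum response factor (SRF), which controls the actin cytoskeleton, fell or did not pass. Of 26 tested genes of this group, 0 rose (against 21.3% of all genes) and 14 fell (53.8%, against 17.0%). The median log2 change was -0.38. Smooth muscle actin (Acta2) read 3004 and 2359 at 4 h and 430 and 406 at 24 h (6.37-fold lower, SE 0.14 on the log2 scale, adjusted p = 2.4e-07). Vinculin (Vcl), which links integrins to actin, read 1555 and 1092 at 4 h and 350 and 346 at 24 h (3.75-fold lower, adjusted p = 4.8e-06). The 4 h arrays were above the 24 h arrays for both. The actin-binding proteins Tagln2, Cnn1 and Cnn2 fell 5.20-fold, 3.93-fold and 1.93-fold. The matricellular genes Ccn1 and Ccn2, classical targets of SRF and of YAP, fell 4.35-fold and 2.83-fold. Ccn1 read 875 and 739 at 4 h and 226 and 152 at 24 h, and Ccn2 read 99 and 95 at 4 h and 36 and 32.6 at 24 h.

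BMP4 was present throughout, and several of its feedback genes fell while the Id genes did not pass. Of 26 tested BMP targets and feedback genes, 2 rose (7.69%, against 21.3% of all genes) and 10 fell (38.5%, against 17.0%). Their median log2 change was -0.34, but -0.18 without the first 24 h array and -0.07 after normexp correction. Smurf1, a ubiquitin ligase that removes BMP receptors and SMADs, read 65.9 and 48.9 at 4 h and 9.5 and 11.3 at 24 h (5.48-fold lower, adjusted p = 8.6e-07). Smad6, the inhibitory SMAD of the pathway, read 354 and 368 at 4 h and 185 and 201 at 24 h (1.87-fold lower, adjusted p = 1.6e-04). Groups did not overlap for these 2 genes, nor for the repressor Skil, which fell 3.18-fold, the BMP receptor Acvr1, which fell 2.78-fold, or the transcription factor Atoh8, which fell 1.77-fold. Another receptor moved the opposite way, since Bmpr1a rose 1.72-fold from 738 and 778 to 1306 and 1297 (adjusted p = 1.6e-04). The extracellular regulator Bmper rose 1.53-fold. Fst, the largest fall of the group, is described above.

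The Id genes encode inhibitors of neurogenic transcription factors and are direct BMP targets. Id2 read 9507 and 8010 at 4 h and 10225 and 9535 at 24 h and Id3 read 9997 and 10472 at 4 h and 9126 and 11974 at 24 h, with overlapping groups for Id3 (adjusted p = 0.33 and 0.88). Id4 read 2469 and 2685 at 4 h and 2463 and 1869 at 24 h. Id1 read 4715 and 5228 at 4 h and 2190 and 4960 at 24 h, so that 1 of the 24 h arrays stood at the level of the 4 h arrays and the other far below it (adjusted p = 0.11). Through the Notch pathway neighbouring cells keep each other undifferentiated. Of 22 tested genes of this pathway, 4 rose (18.2%, against 21.3% of all genes) and 3 fell (13.6%, against 17.0%), near the shares of all genes. Dtx1, a ubiquitin ligase and Notch target, read 122 and 77.4 at 4 h and 235 and 273 at 24 h (2.61-fold higher, adjusted p = 1.3e-04). The ligand-like gene Dll3 rose 1.82-fold from 5.3 and 5.7 to 10.7 and 9.4, or 1.13-fold after normexp correction. The target Hey1, which also responds to BMP, read 3248 and 3304 at 4 h and 1695 and 1450 at 24 h (2.09-fold lower, adjusted p = 8.1e-05). The inhibitor Numb fell 2.00-fold, or 1.31-fold after normexp correction. The receptor Notch1 read 500 and 412 at 4 h and 414 and 347 at 24 h and the target Hes5 read 78.9 and 90.8 at 4 h and 93.2 and 65.4 at 24 h, and neither passed (adjusted p = 0.15 and 0.62).

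**Figure D2:**
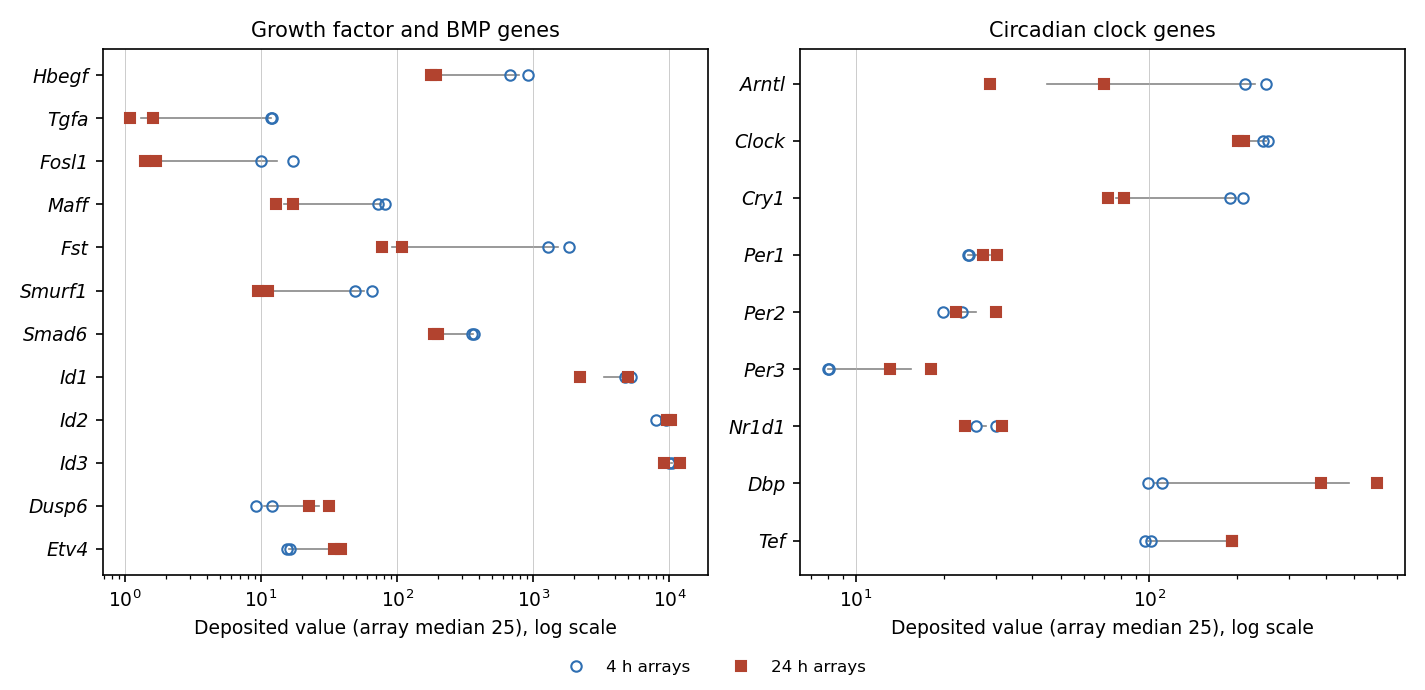
Deposited values on a log scale (array median 25) of genes of growth factor and BMP signalling (left) and of the circadian clock (right), with open circles for the 2 arrays at 4 h, filled squares for the 2 arrays at 24 h and a grey line between group means. Hbegf, Tgfa, Fosl1, Maff, Fst, Smurf1, Smad6, Arntl and Cry1 lie lower at 24 h, Dusp6, Etv4, Dbp, Tef and Per3 lie higher, and the circles and squares of Id1, Id3, Per2 and Nr1d1 overlap.

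Some genes of the circadian clock were far apart between 4 h and 24 h. Arntl, which encodes the clock activator BMAL1, read 251 and 212 at 4 h and 70.2 and 28.7 at 24 h (5.14-fold lower, log2 change -2.36, SE 0.31, adjusted p = 1.3e-04). Dbp, an output gene that BMAL1 activates, read 99.3 and 111 at 4 h and 600 and 386 at 24 h (4.59-fold higher, adjusted p = 4.4e-06). The 2 genes thus moved in opposite directions, each with the groups apart. The related output factor Tef rose 1.93-fold from 97 and 102 to 192 on either array. Per3 rose 1.91-fold from 8.0 and 8.1 to 18.1 and 13.1, or 1.21-fold after normexp correction. The repressor Cry1 read 189 and 209 at 4 h and 82.2 and 72.4 at 24 h (2.57-fold lower, adjusted p = 8.2e-06). Csnk1d, a kinase that marks PER proteins for degradation, fell 1.39-fold. Clock read 255 and 245 at 4 h and 201 and 211 at 24 h, Per1 24.3 and 24.1 at 4 h and 30.4 and 27.1 at 24 h, Per2 19.8 and 23 at 4 h and 21.9 and 30.1 at 24 h and Nr1d1 30 and 25.6 at 4 h and 31.4 and 23.5 at 24 h, and none of these 4 passed, with adjusted p from 0.074 to 0.91. Of 21 clock genes tested, 4 rose (7 without the first 24 h array) and 6 fell. The shares of clock genes that rose and fell were 19.0% and 28.6%, against 21.3% and 17.0% of all genes. Only 2 times were sampled, so no phase or period can be read from these values.

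Genes of cholesterol synthesis rose. Of 15 tested, 13 rose and 0 fell, with a median log2 change of 1.04. Tm7sf2, a sterol reductase, read 176 and 128 at 4 h and 974 and 561 at 24 h (4.94-fold higher, log2 change 2.30, SE 0.22, adjusted p = 1.6e-05). Nsdhl, which removes methyl groups from sterols, read 236 and 220 at 4 h and 695 and 756 at 24 h (3.19-fold higher, adjusted p = 1.0e-06). The groups were apart for both genes. Enzymes of the early and of the late steps rose, with mevalonate kinase (Mvk) at 2.46-fold, isopentenyl diphosphate isomerase (Idi1) at 2.08-fold, squalene epoxidase (Sqle) at 1.72-fold and Hsd17b7 at 2.93-fold. Mvk read 51.4 and 52.9 at 4 h and 126 and 131 at 24 h, and Idi1 read 176 and 177 at 4 h and 378 and 354 at 24 h. Lanosterol synthase (Lss) read 327 and 349 at 4 h and 342 and 421 at 24 h and did not pass (adjusted p = 0.34).

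The regulators of the sterol pathway rose with it. Of 17 tested genes of sterol uptake, export and regulation, 10 rose and 1 fell (median log2 change 0.54, and 0.36 after normexp correction). Srebf1, the transcription factor of lipid synthesis, read 226 and 213 at 4 h and 579 and 495 at 24 h (2.44-fold higher, adjusted p = 1.6e-05). Insig1, which holds SREBP proteins in the endoplasmic reticulum and is itself an SREBP target, read 57.8 and 57.9 at 4 h and 138 and 137 at 24 h (2.37-fold higher, adjusted p = 1.0e-05). Nr1h3, the oxysterol receptor LXR-alpha, rose 2.90-fold from 30.8 and 35.9 to 83.8 and 111. In fatty acid metabolism, 11 of 23 tested genes rose and 3 fell (0 without the first 4 h array, 5 after quantile normalization). Thrsp, a promoter of lipogenesis, read 57.4 and 63.8 at 4 h and 840 and 435 at 24 h (9.99-fold higher, adjusted p = 1.6e-06). The desaturases Scd1 and Fads1 rose 3.66-fold and 2.09-fold, with Scd1 at 648 and 493 at 4 h and 2169 and 1968 at 24 h.

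The letters CCAAT, the core of a promoter element bound by NF-Y, were looked for on both strands in the RefSeq promoter windows of build GRCm38.p6, each from 250 bases before to 50 after a gene's start. They were present in 13 of the 13 cholesterol synthesis genes that had a window, of which 11 rose, and in 41.1% of all 27025 genes with a window. Such matches are short and common, and they are a description of the sequence and not of binding.

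Genes of glucose metabolism and respiration rose as well. Of 31 glycolytic genes and hypoxia targets, 19 rose and 2 fell (4 without the second 24 h array, 1 without the first 4 h array), with a median log2 change of 0.63. The phosphofructokinase subunit Pfkl read 101 and 104 at 4 h and 244 and 239 at 24 h (2.35-fold higher, adjusted p = 7.8e-06). Phosphoglycerate mutase (Pgam1) and enolase (Eno1) rose 1.90-fold and 1.97-fold, with Eno1 at 2618 and 2043 at 4 h and 4524 and 4606 at 24 h. Both groups were apart for each. The peptide hormone precursor Adm read 6.2 and 4.9 at 4 h and 19.4 and 37.1 at 24 h (4.87-fold higher, 1.675-fold after normexp correction). The collagen hydroxylase P4ha2, at low readings of 5.4 and 4.3 at 4 h and 2.5 and 2.1 at 24 h, fell 2.10-fold, or 1.11-fold after normexp correction. Slc6a8, which imports creatine, rose 3.31-fold from 1402 and 1432 to 4639 and 4729 (adjusted p = 4.1e-07).

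The nuclear genes of the respiratory chain and ATP synthase moved by less per gene and in greater number. Of 69 tested, 52 rose (75.4%) and 0 fell, against 21.3% and 17.0% of all genes. The median log2 change was 0.57, and it was 0.63 and 0.53 within the 2 scan settings. Atp5g1, a subunit of the membrane ring of ATP synthase, read 251 and 276 at 4 h and 620 and 663 at 24 h (2.43-fold higher, adjusted p = 1.2e-05). Ndufa4, a subunit of cytochrome oxidase, rose 1.94-fold and the ATP synthase subunit Atp5e 1.89-fold. Atp5e read 2240 and 2198 at 4 h and 4180 and 4200 at 24 h. The count of genes that rose was 31 after quantile normalization of the arrays, and the median was 0.29.

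**Figure D3:**
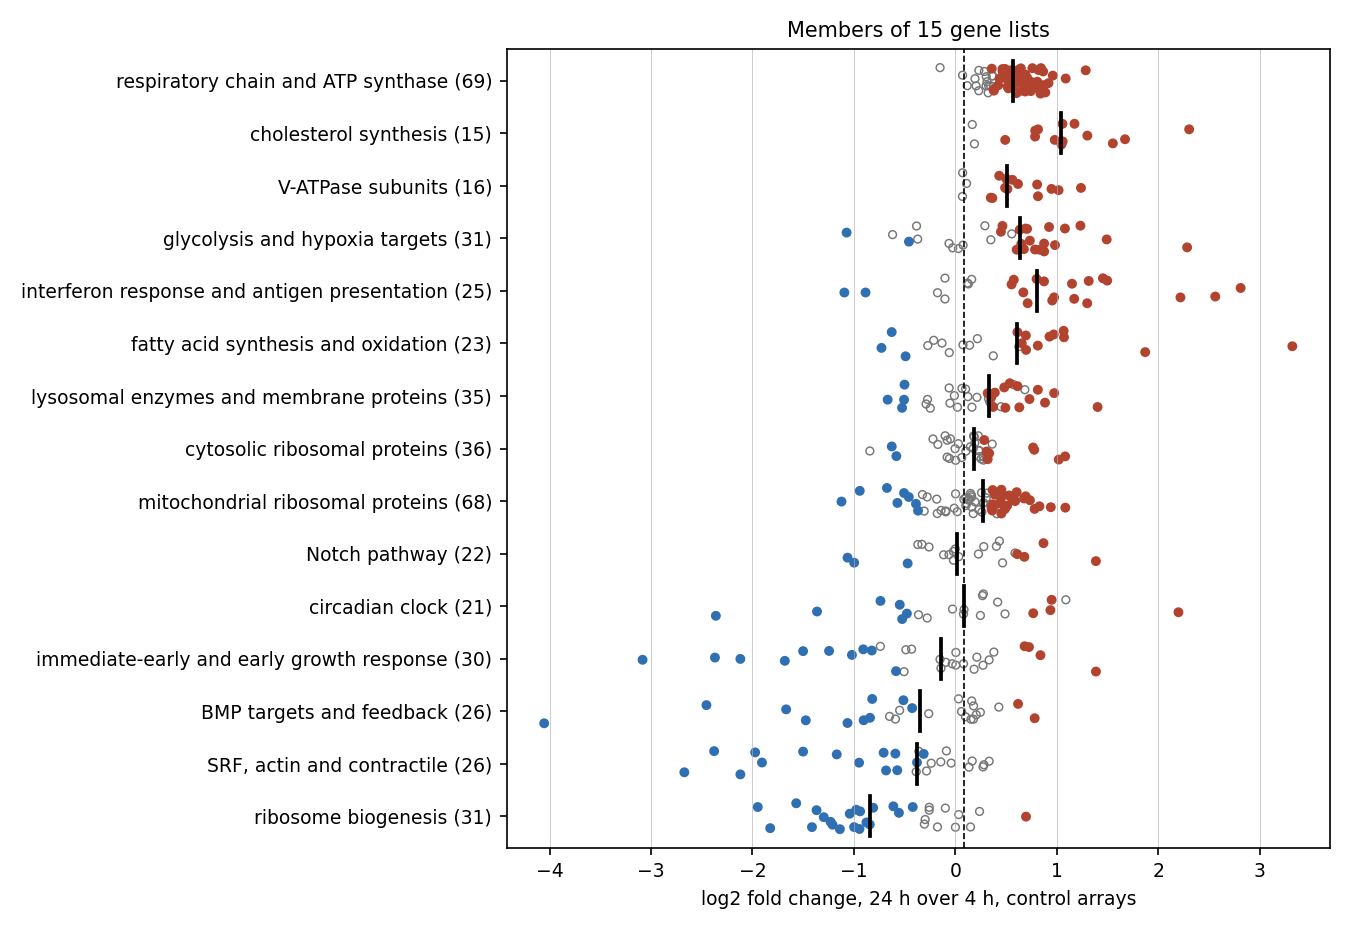
Log2 fold changes of 24 h over 4 h for the tested members of 15 gene lists, with the number of members in brackets. Red points rose and blue points fell at an adjusted p under 0.05 (limma), open grey points did not pass, black bars mark list medians and the dashed line is the median of all genes, 0.09. The members of the respiratory chain, cholesterol synthesis and V-ATPase lists lie mostly to the right of the line and those of ribosome biogenesis and the SRF group mostly to the left.

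Ribosome biogenesis moved opposite to respiration. Of 31 tested genes for the making of ribosomes, 20 fell and 1 rose, with a median log2 change of -0.84 (-0.90 and -0.62 within the 2 scan settings, -0.50 after normexp correction). Nop2, an enzyme that methylates ribosomal RNA, read 169 and 186 at 4 h and 41.9 and 50.3 at 24 h (3.86-fold lower, log2 change -1.95, SE 0.14, adjusted p = 1.9e-06). Nop58 and Nop56, the core proteins of the particles that modify ribosomal RNA, fell 3.54-fold and 2.97-fold, with Nop58 at 818 and 714 at 4 h and 220 and 212 at 24 h. The groups were apart for all 3 genes. The helicase Ddx21 fell 2.58-fold and Mybbp1a, a nucleolar factor, 2.46-fold.

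The proteins of the ribosome itself had no such direction. Of 36 genes for cytosolic ribosomal proteins, 8 rose (22.2%, against 21.3% of all genes) and 2 fell (5.56%, against 17.0%). This balance depended on the scaling, with 4 higher and 9 lower after quantile normalization and a median of -0.10 in place of 0.18. The count that rose was 3 without either 4 h array and 5 without the second 24 h array. Rplp1, a protein of the ribosomal stalk, read 2047 and 1955 at 4 h and 3799 and 4716 at 24 h (2.12-fold higher, adjusted p = 4.0e-05). Mitochondrial ribosomal proteins had 26 of 68 genes higher and 8 lower (4 and 5 without the second array of 4 h and of 24 h), and 15 to 17 higher without the first 24 h array or either 4 h array or after quantile normalization.

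Of the ribosome biogenesis genes, 8 of the 26 with a promoter window (30.8%) held the E-box CACGTG, a palindrome bound by MYC, by clock factors and by the MiT/TFE family, compared with 8.09% of all genes. Of these 8, 6 fell and 1 rose, and of the 18 without it 12 fell. The window of Nop2 is shown with that of Mcoln1, a gene of the next group that moved the other way and holds the same letters, and of Cry1 from the clock. They are 300 bases each from RefSeq, build GRCm38.p6, 5′ to 3′ in the direction of the gene, with the E-box in capitals: Nop2 at chr6:125131633-125131932 (plus strand), Mcoln1 at chr8:3500269-3500568 (plus strand) and Cry1 at chr10:85185005-85185304 (minus strand).
Nop2: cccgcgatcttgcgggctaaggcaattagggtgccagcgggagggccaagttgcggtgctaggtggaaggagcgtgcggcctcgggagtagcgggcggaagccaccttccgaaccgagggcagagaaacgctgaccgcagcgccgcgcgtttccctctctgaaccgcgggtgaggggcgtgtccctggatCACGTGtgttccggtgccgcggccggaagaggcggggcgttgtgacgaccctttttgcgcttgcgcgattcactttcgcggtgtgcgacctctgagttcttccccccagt
Mcoln1: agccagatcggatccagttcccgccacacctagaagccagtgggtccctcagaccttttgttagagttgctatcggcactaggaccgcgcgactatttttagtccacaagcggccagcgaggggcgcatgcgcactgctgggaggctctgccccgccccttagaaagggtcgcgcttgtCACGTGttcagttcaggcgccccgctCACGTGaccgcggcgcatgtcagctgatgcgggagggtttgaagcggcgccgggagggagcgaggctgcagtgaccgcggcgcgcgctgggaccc
Cry1: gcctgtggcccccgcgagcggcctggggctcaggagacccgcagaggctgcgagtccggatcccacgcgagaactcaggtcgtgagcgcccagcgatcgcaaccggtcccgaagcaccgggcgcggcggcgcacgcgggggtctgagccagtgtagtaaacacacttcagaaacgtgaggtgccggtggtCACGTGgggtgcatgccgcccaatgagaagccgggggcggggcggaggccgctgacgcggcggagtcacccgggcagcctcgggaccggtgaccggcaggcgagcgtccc
The same element thus stood in the promoters of genes that fell (Nop2, Cry1) and of a gene that rose (Mcoln1).

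Among 35 genes for lysosomal enzymes and membrane proteins, 14 rose (40.0%, against 21.3% of all genes), 4 fell (11.4%, against 17.0%) and 17 did not pass, and without the first 4 h array 9 rose and 0 fell (1 fell without the second 24 h array, 2 without the first, 7 after quantile normalization). Mcoln1, the calcium channel of the lysosomal membrane, read 103 and 101 at 4 h and 330 and 221 at 24 h (2.64-fold higher, adjusted p = 8.8e-05). The protease cathepsin D (Ctsd) read 8807 and 7952 at 4 h and 15899 and 14982 at 24 h (1.84-fold higher, adjusted p = 4.4e-05). The 24 h arrays were above the 4 h arrays for both. The protease Lgmn and the ceramidase Asah1 rose 1.76-fold and 1.66-fold. The E-box was present in 12 of the 32 lysosomal genes with a window (37.5%), of which 5 rose and 1 fell, and of the 20 without it 8 rose and 3 fell.

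The V-ATPase, the pump that BafA blocks, was higher at 24 h in cells that never saw the drug. Of 16 tested subunit genes, 13 rose and 0 fell (8 rose without the first 4 h array and 7 after quantile normalization), with a median log2 change of 0.51 (0.26 after quantile normalization). Atp6v1e1, a subunit of the stalk, read 1579 and 1470 at 4 h and 3576 and 3609 at 24 h (2.36-fold higher, adjusted p = 1.5e-05). Atp6v0e, a small membrane subunit, read 1373 and 1390 at 4 h and 2813 and 2777 at 24 h (2.02-fold higher, adjusted p = 6.9e-05). Atp6v0a2, a large membrane subunit, rose 1.76-fold. All 3 had the groups apart. The autophagy protein gene Gabarap rose 1.85-fold from 3372 and 3117 to 5542 and 6492.

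Stress response genes did not all move one way. Of the NRF2-linked genes tested, 42.9% rose and 9.52% fell, with a median log2 change of 0.09, as over all genes. Amino acid response genes had 26.5% higher and 14.7% lower. Over all genes the shares were 21.3% and 17.0%. Nqo1, the quinone reductase that NRF2 induces, read 19 and 19.9 at 4 h and 136 and 136 at 24 h (6.99-fold higher, adjusted p = 1.1e-07), and the glutathione transferase Gstm1 read 498 and 511 at 4 h and 1424 and 1441 at 24 h (2.84-fold higher, adjusted p = 1.4e-06). Srxn1, another NRF2 target, which reduces peroxiredoxins, fell 2.36-fold from 265 and 241 to 96.4 and 119 (adjusted p = 8.7e-05). Of 21 NRF2-linked genes, 9 rose and 2 fell (4 after quantile normalization, 1 without the first 4 h array). In the amino acid response, the transcription factor Atf4 read 472 and 536 at 4 h and 215 and 292 at 24 h (2.01-fold lower, adjusted p = 2.7e-04) and the serine synthesis enzyme Psat1 fell 1.92-fold. The leucine transporter Slc7a5, an ATF4 target, rose 4.78-fold from 119 and 117 to 635 and 504. The list of 34 such genes had 9 higher and 5 lower (3 lower without the first 4 h array, 8 after quantile normalization).

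Most tested genes that glucocorticoids induce were lower at 24 h, as were metal-binding genes. The 2 lists are not separate, since the median log2 change of the first, -0.47, was that of metallothionein 1. Of 15 glucocorticoid-responsive genes, 10 fell and 2 rose, with 5 or 6 falling without either 4 h array or the first 24 h array. Tsc22d3, also known as GILZ, read 312 and 252 at 4 h and 137 and 118 at 24 h (2.20-fold lower, adjusted p = 2.3e-04). Ddit4, an inhibitor of mTORC1 signalling that hypoxia and energy stress also induce, read 64.5 and 94.5 at 4 h and 300 and 237 at 24 h (3.41-fold higher, adjusted p = 3.6e-05). The 2 genes were thus on opposite sides. Among 7 metallothionein and zinc genes, 6 fell (2 without the first 4 h array). Metallothionein 1 (Mt1) read 28127 and 25558 at 4 h and 20588 and 18218 at 24 h (1.38-fold lower, adjusted p = 0.0042).

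The cell cycle genes showed no single direction. Of 37 genes that act at entry into S phase and in replication, 11 rose and 7 fell (6 and 3 without the first 4 h array), and of 27 genes of G2 and mitosis, 9 rose and 4 fell (5 rose without the second array of either time, 2 fell without the first 4 h array). The first list had 29.7% higher and 18.9% lower, and the second 33.3% and 14.8%. Over all genes the shares were 21.3% and 17.0%. Cyclin E2 (Ccne2) read 71.2 and 63.8 at 4 h and 24.3 and 22.7 at 24 h (2.87-fold lower, adjusted p = 3.4e-06), and Cdt1, which licenses replication origins, fell 1.97-fold. Thymidine kinase (Tk1) read 5.9 and 6.8 at 4 h and 18.1 and 18.5 at 24 h (2.89-fold higher, adjusted p = 2.8e-05). Mitotic genes that rose included Cdk1, which read 63.3 and 64.8 at 4 h and 143 and 115 at 24 h (2.00-fold higher, adjusted p = 1.4e-04). Cyclin A2 (Ccna2) rose 1.70-fold, the spindle protein Nusap1 2.18-fold and the centromere protein Cenpf 4.81-fold, while the centromere protein Incenp fell 2.34-fold. Tk1, Ccna2 and Cenpf read under the array median of 25 at 4 h. The cyclin-dependent kinase inhibitor Cdkn1c (p57) read 25.1 and 19.7 at 4 h and 3.9 and 4.5 at 24 h. It was 5.31-fold lower at 24 h (adjusted p = 2.8e-06), or 1.61-fold lower after normexp correction. The growth arrest genes Gadd45a and Gadd45b moved apart, with Gadd45a at 287 and 307 at 4 h and 1013 and 1132 at 24 h (3.61-fold higher) and Gadd45b at 3230 and 3308 at 4 h and 1337 and 1571 at 24 h (2.25-fold lower).

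Interferon-responsive genes rose in the untreated cells. Of 25 tested genes of the interferon response and antigen presentation, 17 rose and 2 fell, with a median log2 change of 0.80 (0.79 and 0.71 within the 2 scan settings, 0.41 after normexp correction). Ifit3, an antiviral protein that responds to type I interferon, read 5.4 and 6.9 at 4 h and 45.5 and 40.3 at 24 h (7.02-fold higher, 2.13-fold after normexp correction, log2 change 2.81, SE 0.18, adjusted p = 7.5e-07). Usp18, which restrains the interferon receptor, read 22.4 and 26.5 at 4 h and 136 and 152 at 24 h (5.90-fold higher, adjusted p = 2.4e-07). The groups were far apart for both. The response genes Ifi44, Mx2 and Oasl2 rose 4.65-fold, 2.48-fold and 2.82-fold from low readings, with Mx2 at 7.3 and 8.2 at 4 h and 18.3 and 20.2 at 24 h. The transcription factors of the pathway rose as well, Irf7 from 17.4 and 21.8 to 51.1 and 55.7 (2.74-fold) and Stat2 from 54.6 and 45.3 to 127 and 118 (2.46-fold). The chemokine Cxcl10, which interferon induces, rose 2.93-fold, complement C3 rose 2.38-fold, and the iron-binding secreted protein Lcn2 read 48.7 and 61.5 at 4 h and 286 and 410 at 24 h (6.26-fold higher, adjusted p = 1.0e-06). Over the whole list of 27 chemokines, cytokines and inflammatory genes, 9 rose and 3 fell, with 4 and 4 without the first 4 h array and 6 and 6 without the second 24 h array. Ly6c1, a surface protein that interferon also induces, read 130 and 132 at 4 h and 1096 and 2232 at 24 h (11.9-fold higher). Probes of gene families with near-identical members (Ly6, Ifit, metallothioneins, Scd) may hybridise with more than 1 member.

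The letters GAAA followed by any 2 bases and by GAAA again, the core of the interferon-stimulated response element, were searched on both strands of the same windows. They stood in 10 of the 21 interferon genes with a window (47.6%) and in 3.99% of all genes. Of the 10, 7 rose and 1 fell, and of the 11 without them 7 rose and 1 fell, so the counts were alike with and without the letters. The windows of Ifit3 at chr19:34583279-34583578 and Stat2 at chr10:128270248-128270547 (RefSeq, build GRCm38.p6, both on the plus strand) are given because both genes rose and both hold the letters, in capitals, here read from the opposite strand as a pair of TTTC.
Ifit3: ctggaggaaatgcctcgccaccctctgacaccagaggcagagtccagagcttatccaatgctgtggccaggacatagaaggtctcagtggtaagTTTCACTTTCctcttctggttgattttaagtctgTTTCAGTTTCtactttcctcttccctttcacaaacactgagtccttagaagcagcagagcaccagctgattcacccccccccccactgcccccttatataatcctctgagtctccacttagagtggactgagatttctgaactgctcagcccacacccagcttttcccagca
Stat2: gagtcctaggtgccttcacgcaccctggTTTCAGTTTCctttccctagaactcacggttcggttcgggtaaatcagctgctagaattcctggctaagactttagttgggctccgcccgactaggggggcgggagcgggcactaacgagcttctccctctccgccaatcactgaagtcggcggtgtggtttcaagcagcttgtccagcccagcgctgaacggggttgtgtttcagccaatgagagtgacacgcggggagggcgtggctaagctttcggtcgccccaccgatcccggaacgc
The window of Ifit3 thus held 2 copies and that of Stat2 held 1.

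Genes of stem cell and glial identity shifted in part. Among 20 tested stem cell and quiescence markers, 7 rose, 3 fell (5 after quantile normalization) and 10 did not pass, where 21.3% of all genes rose and 17.0% fell. The median log2 change of the list was 0.009, against 0.09 over all genes, so the list as a whole showed no shift in 1 direction. Nfib, a nuclear factor I gene that promotes glial differentiation and stem cell quiescence, read 170 and 170 at 4 h and 552 and 475 at 24 h (3.01-fold higher, adjusted p = 4.6e-06). Its relative Nfix rose 1.46-fold and the stem cell factor Sox9 1.45-fold. Hopx, a marker of quiescent stem cells, read 396 and 358 at 4 h and 1288 and 980 at 24 h (2.99-fold higher, adjusted p = 9.9e-06). Nestin (Nes), the intermediate filament of active neural progenitors, read 218 and 174 at 4 h and 86.1 and 85.1 at 24 h (2.28-fold lower, adjusted p = 3.1e-05). The groups were apart for Nfib, Hopx and Nes. Fabp7 rose 1.49-fold and Klf9, which restrains stem cell division, 1.63-fold, while the surface marker Prom1 fell 1.52-fold. Vcam1, an adhesion molecule of quiescent stem cells, read 791 and 665 at 4 h and 689 and 664 at 24 h and did not pass (adjusted p = 0.55).

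Astrocyte markers changed about as often as other genes. Of 24 tested, 6 rose (25%, against 21.3% of all genes) and 5 fell (20.8%, against 17.0%) (3 fell without the second 24 h array and 2 without the first 4 h array). The water channel Aqp4 read 1842 and 2017 at 4 h and 4907 and 4898 at 24 h (2.54-fold higher, adjusted p = 5.8e-05), and S100b, a calcium-binding protein, read 63.9 and 68.6 at 4 h and 286 and 235 at 24 h (3.91-fold higher, adjusted p = 1.0e-06). Sparcl1, a secreted synapse-promoting protein, rose 2.27-fold and Aldoc 1.55-fold. Fgfr3, an FGF receptor of astrocyte precursors, read 48.9 and 54.8 at 4 h and 15.6 and 12.3 at 24 h (3.74-fold lower, adjusted p = 3.1e-06). The intermediate filament Gfap read 816 and 934 at 4 h and 890 and 1092 at 24 h, with overlapping groups (adjusted p = 0.42). The gap junction gene Gja1 read 4629 and 4688 at 4 h and 4676 and 1561 at 24 h, so that the second 24 h array alone was low (adjusted p = 0.12).

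Of other lineages, Tubb3, the neuronal tubulin, read 154 and 159 at 4 h and 408 and 502 at 24 h (2.89-fold higher, adjusted p = 4.7e-06). The interneuron factors Dlx1 and Dlx2, which mark the ventral telencephalon, fell 2.01-fold and 2.61-fold, with Dlx2 at 38.3 and 28.4 at 4 h and 12.5 and 12.8 at 24 h. Olig2, the partner of Olig1 in the oligodendrocyte lineage, rose 1.81-fold from 183 and 162 to 309 and 315. Sox10 and Mbp, which mark later steps of that lineage, read 35.4 and 39.3 at 4 h and 41 and 42.9 at 24 h and 33 and 35.2 at 4 h and 32.9 and 32.4 at 24 h, and neither passed (adjusted p = 0.31 and 0.72). Over the lists, 5 of 18 neuronal markers rose (3 without the second array of either time) and 3 fell, and 3 of 16 oligodendrocyte lineage markers rose and 4 fell. The log2 changes of the oligodendrocyte list ran from -1.50 to 3.13 (Olig1). Their median was -0.02, against 0.09 over all genes, so the rises of Olig1 and Olig2 do not stand for the list.

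The BafA arrays, which share no array with the controls, allowed the change over time to be set beside that of treated cells. Of the 5728 genes called in the control arrays, 3565 were also called in the same direction between the BafA arrays, where 6481 were called, and 321 were called in the opposite direction. Tested as an interaction, the change over time differed for 3444 of 20473 probes (16.8%) and for 2652 of 14679 genes (18.1%). The clock genes Arntl, Dbp and Cry1 had, in the BafA arrays, log2 changes of -2.54, 2.05 and -1.52 and differences from the controls of -0.18 (SE 0.43), -0.14 (SE 0.25) and -0.16 (SE 0.17), none past the test. The changes of Per1 and Csnk1d did differ, by -0.71 and -0.62 (adjusted p of the differences 0.0131 and 0.0145). Of 21 clock genes, 1 was higher and 2 were lower in the BafA course, against 8.46% and 8.36% of all probes. The ribosome biogenesis gene Nop2 changed by -1.59 and the E-box gene Mcoln1 by 1.26, with differences of 0.36 (SE 0.20) and -0.14 (SE 0.25) that did not pass either. In the BafA course 2 of 31 ribosome biogenesis genes were higher and 2 lower, and of 35 lysosomal genes 5 were higher and 3 lower.

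Interferon genes had other courses with BafA than without. Of the 24 interferon genes with a test of the difference, 14 were lower in the BafA course and 0 higher, against 8.36% of all 20473 probes lower and 8.46% higher. Ifit3, Usp18 and Ifi44 had log2 changes of -1.81, 0.01 and -0.80 in the BafA arrays, where the controls had 2.81, 2.56 and 2.22 (adjusted p of the differences 6.6e-07, 5.0e-06 and 8.1e-06). Several identity genes also differed. Hopx rose in the controls and had a log2 change of -0.65 with BafA (adjusted p of the difference 2.5e-05), Aqp4 had -0.08 (0.001), and Nes had 0.98 against -1.19 in the controls (1.3e-05). The changes of Nfib, Olig1 and Sparcl1 differed by -0.01, -0.09 and -0.03 (SE 0.18, 0.27 and 0.17), none of which passed.

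**Figure D4:**
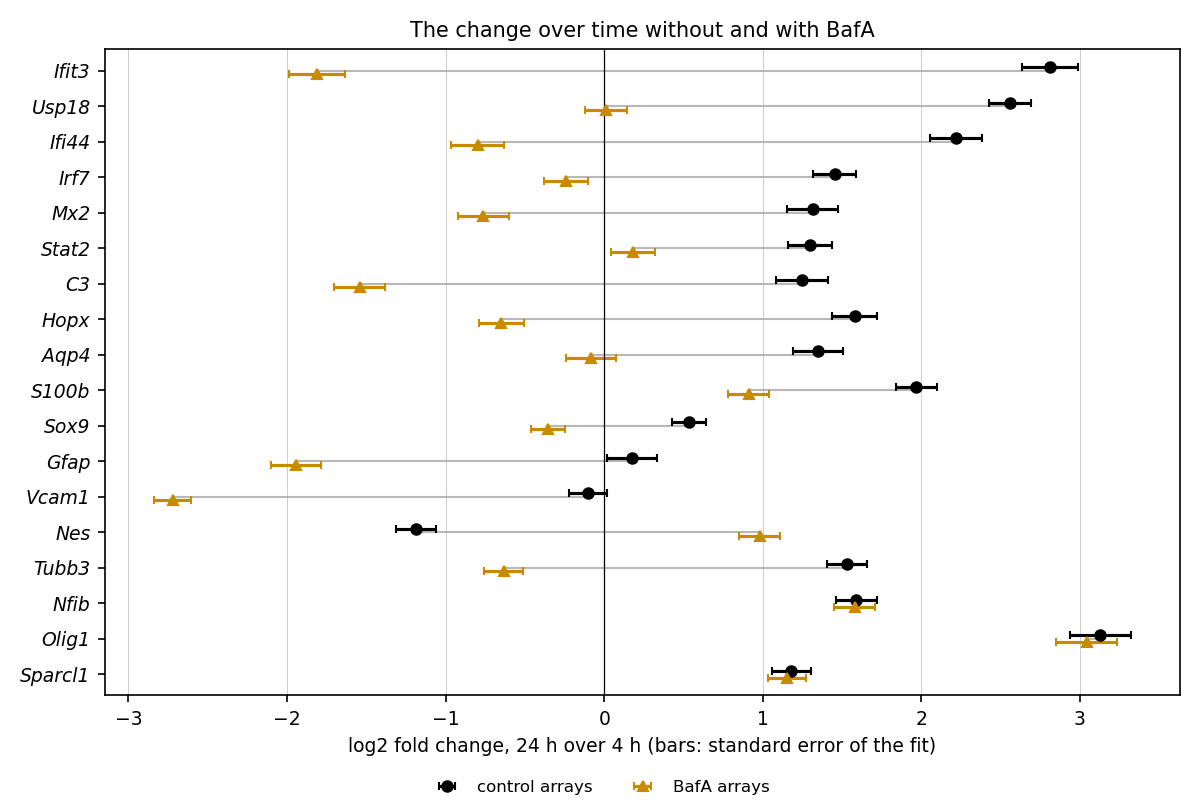
Log2 fold change of 24 h over 4 h of 18 genes in the control arrays (black circles) and in the BafA arrays (orange triangles), with bars for the standard error of the fit. The control points of the interferon genes from Ifit3 to Stat2 lie between 1.30 and 2.81 and their BafA points lie lower, while the points of Nfib, Olig1 and Sparcl1 nearly coincide.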

How the data were processed

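Quiescent NSCs were profiled on 1-colour oligonucleotide arrays, 2 for each of 4 groups. The authors deposited linear signal intensities normalized to the median of each array. Set against the scanner files, each deposited column was a straight line of the spot medians, and probes at or under the blank spots were left empty. No aligner or build applies to these values.

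Values were taken as log2 without a pseudocount. A linear model of the 4 groups was fitted to all 8 arrays with limma 3.58.1 (R 4.3.3, eBayes with trend), so that control and BafA arrays shared 1 estimate of the spread, and the control 24 h against 4 h contrast was adjusted by Benjamini-Hochberg over 20867 probes (threshold 0.05). Folds are ratios of the geometric group means. The interaction was fitted on the 20473 probes that all 8 arrays measured. On simulated data for this comparison (20473 probes), 32 of 67 probes changed 1.5-fold were called, 53 of 67 changed 2-fold and 66 of 66 changed 4-fold. Of 160 probes called there in all, 9 had not been changed. Far fewer probes were changed there than were called in the real data, and the noise was drawn from the fitted spreads. These rates therefore do not carry over to the real comparison.

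Platform annotation gave 1 symbol for 16631 of 23473 probes and none for 6842, and 3947 symbols were updated through RefSeq. The probe with the highest mean over the control arrays stood for a gene. Among 201 genes with several tested probes, 10 had probes called in opposite directions and 81 had only some called.

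Genes were named by a rule. It took the 20 largest rises and falls among called genes without overlap of the groups and with a higher mean of 50 or more. It also took up to 8 members of each list by size of change, whole signalling, clock and cholesterol lists, and cell type markers. The comparison, the lists and the markers were chosen with earlier results of these data known. Of the genes so named, those given with values as changed, apart from Btc, were picked among ones whose call held under all alternatives, so that their stability supports nothing.

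The alternatives were normexp background correction of the scanner signals, quantile normalization, a pseudocount of 10, only probes with a mean of 25 or more, eBayes without the trend, blocks for replicate number and scan setting, only the control arrays, each array left out, and the methods' t-test and 2-fold rule. Promoter windows came from RefSeq (GRCm38.p6).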

Additional observations from a re-analysis of the deposited data

Results flagged for a closer look

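The change from 4 h to 24 h was tested for a difference between the BafA-treated and the control cells as an interaction term in the same limma model, and 3444 of 20473 probes (16.8%) passed. The values below are the log2 change with BafA minus that without, and each passed that test with 2 arrays in each of 4 groups. The groups of 2 arrays were too small for a check of single arrays against the rest of their group.

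Among the genes with the largest rises in the controls, the difference was -3.27 for Aplnr, -3.40 for Derl3, -2.84 for Thrsp, -2.67 for Fbln5 and -2.58 for Scrg1, and it was 1.47 for Timp4, whose rise was larger with BafA. Of the genes that fell in the controls, Acta2 had a difference of -3.77, Nr4a1 of -3.49 and the matrix protease Mmp3 of 2.67. Atf4, which was lower at 24 h without the drug, had a difference of 2.79. Igfbp3, an IGF binding protein, had 3.33, and the pump subunit Atp6v0a2 had -1.53.

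The interferon and complement genes named had negative differences, -4.62 for Ifit3, -3.02 for Ifi44, -2.79 for C3, -2.55 for Usp18, -2.08 for Mx2, -1.70 for Irf7 and -1.12 for Stat2. Stem cell and astrocyte genes followed with -2.62 for Vcam1, -2.23 for Hopx, -2.12 for Gfap, -1.43 for Aqp4, -1.05 for S100b, -1.03 for Aldoc, -0.89 for Sox9 and -0.76 for Nfix, whereas Nes had 2.17. Tubb3 had -2.17, and the mitotic genes Nusap1 and Ccna2 had -1.84 and -1.52.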

How the results depend on the processing

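The count of probes called was 7537, with 4255 higher and 3282 lower at 24 h. The methods' t-test after Benjamini-Hochberg called 32 (21 higher, 11 lower), where 5316 passed it without adjustment, and the 2-fold rule of the methods, which uses no spread, gave 2021 (1060 higher, 961 lower). Leaving out 1 array at a time gave 5311 to 7124 called probes, 3020 to 3994 of them higher and 2291 to 3134 lower, with the lone array of a group assumed to vary like the others and the lowest counts without the first control 4 h array. The number of probes whose change differed with BafA was 3444, and 2278 to 3714 with 1 array left out, the lowest without the first BafA 4 h array. The other alternatives stayed within 1.5 times of these counts. Quantile normalization called 7446 probes, of which 51.2% were higher, against 56.5% in the main analysis. Over the genes given in the text, 149 of the 150 called kept their call under every alternative, as they were picked to, with Btc as the exception, 0 reversed, and 8 of the 30 that did not pass did so under at least 1 (Egfr, Junb, Id1, Id4, Notch1, Clock, Vcam1 and Gja1).

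With the replicate number as a block, 8363 probes were called for the change over time and 3928 for its difference. The deviations of same-numbered control arrays correlated at 0.20 between the times, and those of the other pairs of groups at 0.03 to 0.15. Among the brighter probes it was 0.26, against -0.0006 to 0.25. With 2 numbers these values do not settle a pairing, and no source gives one. In the control arrays the number is also the scan setting.

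The number of arrays is the main limit. Probes near the blank level have wide spreads, 158 probes had a value at 24 h and not at 4 h (highest mean 16.85) and 106 the reverse (highest mean 5.8), and these had no fold and no test. At 5698 of 11047, the calls among the brighter probes were more frequent.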

Other observations

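Some gene groups outside the comparisons above are given as values. In the IGF system, which carries growth and survival signals, 5 of 18 tested genes rose (27.8%, against 21.3% of all genes) and 4 fell (22.2%, against 17.0%). The binding protein Igfbp2 read 975 and 1191 at 4 h and 4906 and 5743 at 24 h (4.92-fold higher, adjusted p = 3.9e-07) and the receptor Igf1r read 177 and 132 at 4 h and 58.4 and 46.2 at 24 h (2.94-fold lower, adjusted p = 2.2e-05), each with the groups apart. Among 42 axon guidance genes, 8 rose (19.0%) and 9 fell (21.4%), which is near the shares of all genes, and 4 rose without the first 4 h array and 5 without the second. The secreted semaphorins Sema3c and Sema3a moved in opposite directions, with Sema3c at 28.5 and 30 at 4 h and 2.9 and 2.7 at 24 h (10.4-fold lower in the deposited values and 1.92-fold after normexp correction, since the 24 h readings were near the blank level, adjusted p = 1.5e-07) and Sema3a at 89.2 and 69.2 at 4 h and 314 and 258 at 24 h (3.62-fold higher, adjusted p = 1.8e-05).

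Of 51 tested genes of the extracellular matrix, integrins and proteases, 16 rose (31.4%) and 13 fell (25.5%), with a median log2 change of -0.10. The brain proteoglycan neurocan (Ncan) read 164 and 157 at 4 h and 1016 and 793 at 24 h (5.60-fold higher, adjusted p = 2.5e-07) and collagen Col1a1 rose 2.94-fold. The protease Mmp3 read 28 and 29.9 at 4 h and 5.1 and 5.7 at 24 h (5.37-fold lower, adjusted p = 1.7e-06) and thrombospondin 1 (Thbs1) fell 4.39-fold. Of 33 proteasome subunit genes, 10 rose and 0 fell (3 to 6 rose with 1 control array left out, and 2 rose and 1 fell after quantile normalization).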
